A study of Mus musculus with 2 samples.

Results

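The chemokine genes followed here, other than Cxcl12, were the CC chemokines Ccl3, Ccl4, Ccl5, Ccl6, Ccl9 and Ccl11 and the CXC chemokines Cxcl1, Cxcl2, Cxcl14 and Cxcl16. They were taken by gene symbol and make up 10 of the 31053 genes listed in both libraries. Gene expression was measured in single mouse lung cells with droplet-based 3' chemistry, 1 library from Normoxia and 1 from Hypoxia. Both libraries came from male NG2-CreERTM mice carrying the Ai14 reporter, in which the promoter of Cspg4 (NG2) drives a tamoxifen-dependent Cre that switches on tdTomato, and the labels describe the cells as sorted for tdTomato. Tamoxifen was given at 2 mg per 30 g body weight and the mice rested for 7 days. Hypoxia mice then breathed 10% oxygen for 21 days, and Normoxia mice had no treatment. The labels speak of replicates, but each group holds 1 library and whether animals were pooled is not stated. Therefore no test between the groups was possible, every interval below is a 95% interval that covers counting error only, and 1 library cannot be told apart from its condition.

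Chemokines are small secreted proteins that bind G protein-coupled receptors on leukocytes and guide them into tissue. The family is divided by whether the first conserved cysteines are adjacent (CC) or separated by 1 residue (CXC), and CXC members that carry the residues glutamate, leucine and arginine just before the first cysteine act mainly on neutrophils through Cxcr2. Ccl3, Ccl4 and Ccl5 draw monocytes, T cells and NK cells. Ccl6 and Ccl9 are rodent chemokines of myeloid cells that act on Ccr1. Ccl11 (eotaxin) binds Ccr3 on eosinophils, and Cxcl16 is made as a membrane-bound protein that binds Cxcr6. Cxcl14 is a chemokine of epithelium and stroma.

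The coding runs around the cysteines show this division, with the cysteine codons in capitals, and 1 example of each kind is given 5′ to 3′ from GENCODE M21 transcripts on GRCm38. Ccl4 (exon 2 of 3, plus strand, chr11:83663464-83663496) is shown because its UMIs lay in few cells. Ccl5 (exon 2 of 3, minus strand, chr11:83529233-83529265) had the largest ratio between the libraries, Cxcl2 (exon 2 of 4, plus strand, chr5:90904124-90904159) carries the 3 residues named above directly before the first cysteine codon, and Cxcl16 (exon 2 of 5, minus strand, chr11:70459118-70459153) does not.
Ccl4: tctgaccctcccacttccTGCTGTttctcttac
Ccl5: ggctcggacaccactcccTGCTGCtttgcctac
Cxcl2: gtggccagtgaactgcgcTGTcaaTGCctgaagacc
Cxcl16: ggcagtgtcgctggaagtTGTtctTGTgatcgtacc

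On chromosome 11 (GRCm38, GENCODE M21) 5 of the CC genes lie close together, Ccl5 from 83525778 to 83530518, Ccl9 from 83572919 to 83578636, Ccl6 from 83587882 to 83593087, Ccl3 from 83647844 to 83649355 and Ccl4 from 83662584 to 83664683. Ccl11 (82057823 to 82062955) and Cxcl16 (70453983 to 70459984) lie elsewhere on chromosome 11, and Cxcl14 lies on chromosome 13 (56288643 to 56296551). Cxcl1 (90891241 to 90893115) and Cxcl2 (90903871 to 90905938) are neighbours on chromosome 5. Their upstream regions are shown because both hold 2 matches to the NF-kB letters GGGNNTTCC, as such or with 1 more T (both strands, overlapping matches counted once, in capitals), while their UMIs differed widely. The stretches run from 100 to 31 bases before the RefSeq start site on GRCm38.p6, on the plus strand, at chr5:90891145-90891214 for Cxcl1 and chr5:90903799-90903868 for Cxcl2.
Cxcl1: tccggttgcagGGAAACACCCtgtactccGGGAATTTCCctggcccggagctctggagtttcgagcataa
Cxcl2: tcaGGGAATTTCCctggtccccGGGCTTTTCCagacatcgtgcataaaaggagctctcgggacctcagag
These letters occurred in 7.00% of 32851 promoters of 300 bases. Of the 6 members with a promoter entry they were found in Ccl9, Cxcl1 and Cxcl2, and the core letters of the hypoxia response element, ACGTG or GCGTG, were found in Cxcl1, Cxcl2 and Cxcl14, against 43.8% of all promoters. Ccl4, Ccl5, Ccl11 and Cxcl16 were not searched. The retained cells held 2 Cxcl1 UMIs (unique molecular identifiers, 1 per captured transcript), both in Normoxia and in 2 cells of cluster 7, against 212 Normoxia and 218 Hypoxia UMIs of Cxcl2.

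The filters retained 293 of 373 Normoxia barcodes and 453 of 613 Hypoxia barcodes, with 1112485 and 1592173 UMIs and medians of 3135 and 2818 UMIs per cell. The libraries shared 2 cell barcodes, of which 1 was retained in both. The members, and the other chemokines and receptors listed below, were left out of the clustering, except Ccl19 and Ccl21a, which have 2 rows each. Joint clustering gave 14 clusters. They were named from marker genes as endothelial-like (113 Normoxia and 211 Hypoxia cells), fibroblast-like (39 and 21), macrophage or monocyte-like (27 and 45), T cell-like (13 and 75), B cell-like (31 and 55), ILC2-like (19 and 6) and neutrophil-like (2 and 28), with clusters 5 (45 and 6) and 13 (4 and 6) unnamed. The endothelial-like class includes cluster 8, led by the club cell gene Scgb1a1 and by Vwf, in which 11 of 21 Normoxia and 4 of 22 Hypoxia cells had fewer than 3 endothelial markers, and 5 of these 11 had at least 3 fibroblast markers. The ILC2-like cluster 1 was mixed too. At least 3 ILC2 markers were found in 12 of its 19 Normoxia and 4 of its 6 Hypoxia cells, and at least 3 T cell markers in 8 and 0. No cluster was named as pericytes, and Cspg4, the gene whose promoter drives the reporter, had a UMI in 1 Normoxia and 2 Hypoxia cells. The pan-leukocyte gene Ptprc had UMIs in 57 and 126 cells.

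Cells with a UMI of at least 1 member numbered 98 of 293 in Normoxia (33.4%) and 156 of 453 in Hypoxia (34.4%). In all, 9 members had at least 20 UMIs over both libraries. With a call set at an absolute log2 ratio of at least 1, 1 of these 9 was higher in Hypoxia (Ccl5), against 6.21% of the 9813 genes with at least 20 UMIs, and 5 were lower (Ccl3, Ccl4, Ccl9, Ccl11 and Cxcl14), against 8.13%. The median log2 ratio was -1.02 over the members and 0.04 over all genes. Without 2 Normoxia cells described with Ccl3 and Ccl4, 3 members were higher (Ccl3, Ccl5 and Ccl6) and 3 lower (Ccl4, Ccl11 and Cxcl14), with a median of -0.48. For 7 of the 9 members the same cell class held more UMIs than any other in both libraries, and these were macrophage or monocyte-like cells for Ccl3, Ccl4, Ccl6, Ccl9 and Cxcl16 and fibroblast-like cells for Ccl11 and Cxcl14. For Ccl3 and Ccl4 in Normoxia this class includes 1 of the 2 cells, and its other cells held 11.9% and 27.8% of the UMIs. Ccl5, whose Normoxia UMIs were tied between ILC2-like and T cell-like cells, and Cxcl2 were the exceptions.

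**Figure D1:**
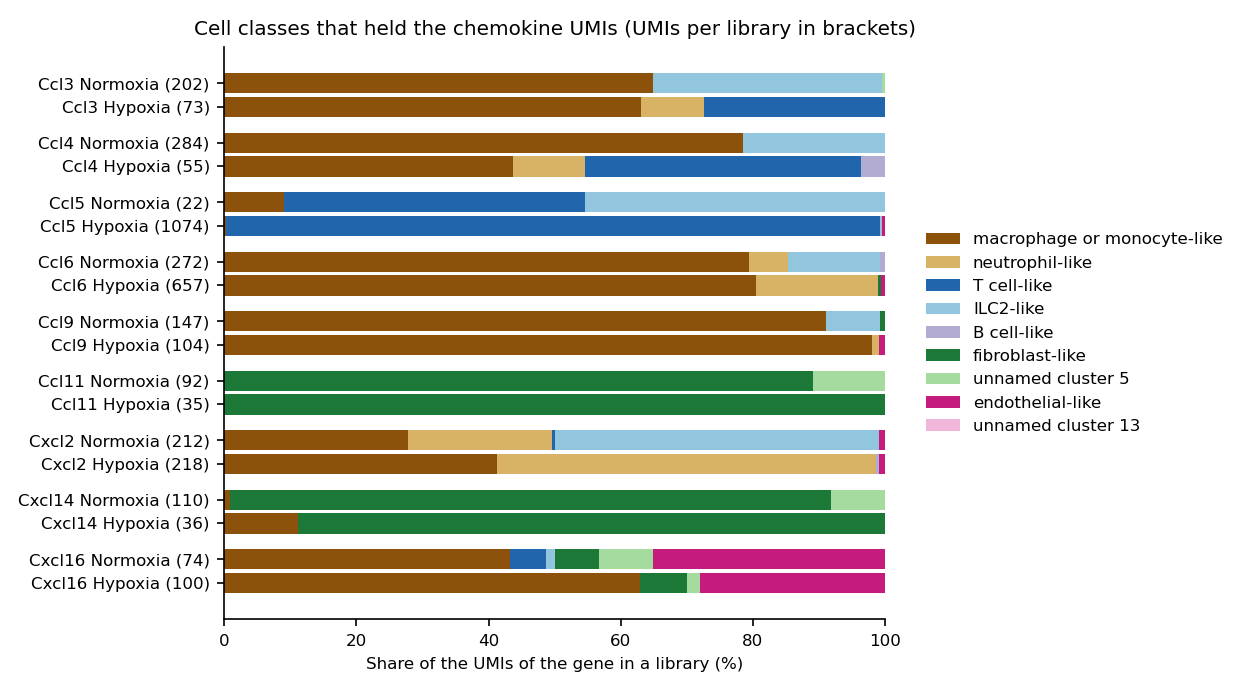
Share of the UMIs of each gene held by each cell class (x axis, percent) in Normoxia and Hypoxia (rows, with the UMIs of the gene in that library in brackets). The fibroblast-like class (dark green) held 89.1% and 100% of Ccl11, and the T cell-like class (dark blue) held 99.1% of Ccl5 in Hypoxia.

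Ccl3 and Ccl4, the macrophage inflammatory proteins, were lower in the Hypoxia library, and 2 Normoxia cells held 87.6% and 71.8% of their Normoxia UMIs. Ccl3 had 202 UMIs in Normoxia, or 182 CPM (UMIs per 1000000 retained UMIs of the library or class), and 73 in Hypoxia (45.8 CPM), a log2 ratio of -1.99 (-2.39 to -1.59). Ccl4 had 284 UMIs (255 CPM) and 55 UMIs (34.5 CPM), a log2 ratio of -2.89 (-3.33 to -2.46). Yet the cells with Ccl3 numbered 8 of 293 in Normoxia and 18 of 453 in Hypoxia, and those with Ccl4 numbered 8 and 13. In Normoxia 1 cell held 107 of the Ccl3 and 144 of the Ccl4 UMIs, and a second held 70 and 60. In Hypoxia no cell held more than 12 Ccl3 or 10 Ccl4 UMIs.

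Those 2 cells were the only retained cells with UMIs of at least 2 of the 7 basophil or mast cell markers, a count looked for after their values had been seen. The first, in cluster 12 of the macrophage or monocyte-like class, had 5 of these markers, among them the basophil gene Cyp11a1 with 8 UMIs, and 0 UMIs of Csf1r, Lyz2 and Cd68. The second, in the ILC2-like cluster 1, had 2 of the markers (Cd200r3 and Gata2) and none of the ILC2 or T cell markers. The members made up 11.6% of all UMIs in the first cell and 6.65% in the second, and the second also held 38 Ccl6 and 12 Ccl9 UMIs. Both cells were kept in the clusters that the joint clustering gave them.

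Without these cells Ccl3 had 25 and 73 UMIs and its log2 ratio turned to 1.02 (0.35 to 1.74). Ccl4 kept its direction with 80 and 55 UMIs, at -1.06 (-1.59 to -0.55). However, 56 of these 80 Normoxia UMIs lay in 1 other cell, and the ratio without that cell alone was not computed. Without the 3 cells with the most Ccl4 UMIs in each library the log2 ratio was -0.20. Within macrophage or monocyte-like cells the log2 ratio of Ccl3 was -2.67 (-3.19 to -2.18) with the first cell and -0.25 (-1.0 to 0.52) without it. Ccl4 had 223 and 24 UMIs there and a log2 ratio of -4.38 (-5.05 to -3.77) with the cell, and -2.91 (-3.64 to -2.24) without it. Of the 79 Ccl4 UMIs that then remained in Normoxia, 56 lay in 1 cell of cluster 7 that had 18 Ccl3 UMIs and 11 of the 12 macrophage markers.

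The chemokines Ccl3 and Ccl4 were found together. In Normoxia 4 cells had both, out of 8 cells with Ccl3 and 8 with Ccl4, and they held 97.5% of the Ccl3 UMIs and 96.8% of the Ccl4 UMIs. In Hypoxia 5 cells had both, 27.8% of the Ccl3 cells and 38.5% of the Ccl4 cells, with 50.7% and 56.4% of the UMIs. Hypoxia cells with Ccl3 lay in clusters 7, 12, 3 and 11, that is in macrophage or monocyte-like (46 UMIs), T cell-like (20) and neutrophil-like cells (7). Normoxia T cell-like cells had 0 UMIs of both genes among 13 cells, so Hypoxia was at least 1.57-fold higher for Ccl3 and at least 1.81-fold higher for Ccl4, computed against a floor of 3 UMIs in the Normoxia class. Of the Hypoxia UMIs there, 19 of 20 Ccl3 and 21 of 23 Ccl4 UMIs lay in 7 cells with NK cell markers, which are described with Ccl5.

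**Figure D2:**
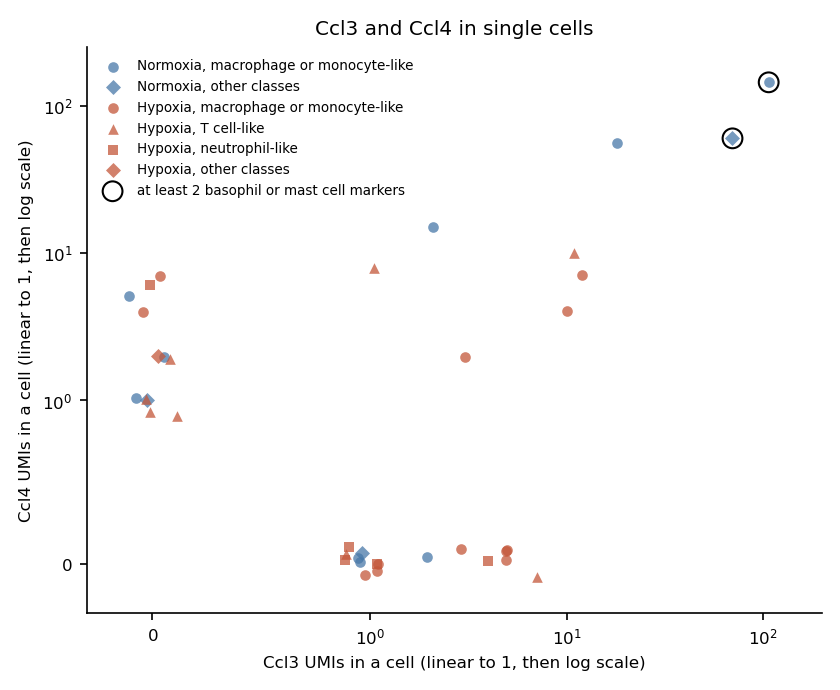
Ccl3 UMIs (x axis) against Ccl4 UMIs (y axis) in every retained cell with a UMI of either gene, on axes that are linear up to 1 and logarithmic above, with a small random offset around zeros and low counts. The circled Normoxia cells, with 107 and 70 Ccl3 UMIs, are those with basophil or mast cell markers, and all Hypoxia cells have at most 12 Ccl3 and 10 Ccl4 UMIs.

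A set of 18 genes induced by tissue dissociation (among them Fos, Jun and Egr1) took a larger share of UMIs in Normoxia, where Ccl3 and Ccl4 were higher. It took 0.946% of UMIs in Normoxia and 0.519% in Hypoxia over all cells, and 1.32% and 0.721% in macrophage or monocyte-like cells. In cluster 12, which held the first of the 2 cells, the shares were 0.755% and 0.861%. The unnamed cluster 5, with 1 Ccl3 and 0 Ccl4 UMIs in Normoxia, stood at 2.39% and 2.12%. It made up 12.8% of Normoxia and 1.06% of Hypoxia UMIs, which bears on the shares over all cells. Single macrophage or monocyte-like cells ranged from 0% to 7.21% in Normoxia and from 0.0281% to 3.04% in Hypoxia, with medians of 0.479% and 0.629%, so the groups overlapped and the medians stood in the other order. The part of this response in the chemokine levels was not tested.

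Ccl5 (RANTES), a product of cytotoxic and memory lymphocytes, had the largest ratio of the members. It had 22 UMIs in 10 Normoxia cells (19.8 CPM) and 1074 UMIs in 43 Hypoxia cells (675 CPM), a log2 ratio of 5.09 (4.49 to 5.77). In Hypoxia 1064 of the UMIs (99.1%) lay in T cell-like cells, whereas the 22 Normoxia UMIs were split between ILC2-like (10), T cell-like (10) and macrophage or monocyte-like cells (2). The ILC2-like class was mixed, and 8 of its 19 Normoxia cells had at least 3 T cell markers. Per T cell-like cell, 33 of 75 in Hypoxia and 3 of 13 in Normoxia had a UMI, and the highest cells held 114 and 5 UMIs. Within this class Ccl5 stood at 4192 CPM in Hypoxia against 167 CPM in Normoxia, a log2 ratio of 4.65 (3.76 to 5.71).

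Among the 3 members with at least 20 UMIs in T cell-like cells, 1 was called higher (Ccl5), against 8.78% of 1675 genes, and 0 were called lower, against 7.10%. The cells behind the class differed between the libraries. By a split chosen after the values had been seen, 7 Hypoxia and 0 Normoxia cells had at least 5 of the NK cell markers, and all 7 carried Ccl5, from 15 to 85 UMIs with a median of 69. They held 406 UMIs, 37.8% of the Ccl5 of that library, and also 26% of its Ccl3 and 38.2% of its Ccl4 UMIs. Of the other cells, those with a Cd8a or Cd8b1 UMI numbered 29 in Hypoxia, of which 20 had Ccl5 (509 UMIs, median 9, highest 114), and 2 in Normoxia, of which 0 had it. Cells with Cd4 but no Cd8a or Cd8b1 UMIs numbered 11 and 5 and held 1 and 5 Ccl5 UMIs. With 2 Cd8-positive cells and no NK-marker cell in Normoxia, a different makeup of the class and a different level per cell cannot be told apart for Ccl5.

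Ccl5 was nearly absent elsewhere in Hypoxia, with UMIs in 4 of 211 endothelial-like cells (1.90%, 1 UMI each) at a median depth of 2834 UMIs, against 44.0% of T cell-like cells at 3132. After thinning every cell to 1000 UMIs, which left out 6 Normoxia and 35 Hypoxia cells, Ccl5 was detected in 7.66% (5.30 to 10.6) of the Hypoxia cells and 0.697% (0.0845 to 2.49) of the Normoxia cells. At 2000 UMIs the shares were 8.46% (5.65 to 12.1) and 3.60% (1.66 to 6.72), and at 500 UMIs, which left out no cell, 6.18% (4.15 to 8.81) and 0.341% (0.00864 to 1.89).

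**Figure D3:**
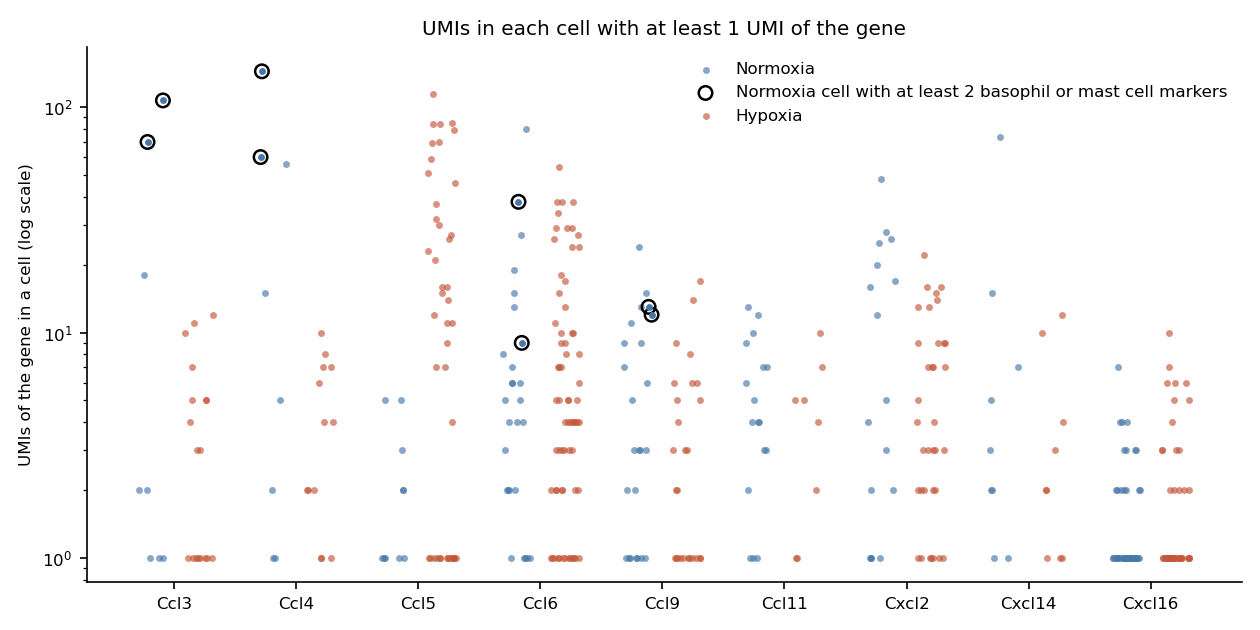
UMIs of each gene in each cell with at least 1 UMI (y axis, log scale; points offset sideways at random), Normoxia in blue and Hypoxia in red, with the 2 cells that had basophil or mast cell markers circled. Ccl5 reaches 114 UMIs in a Hypoxia cell and 5 in a Normoxia cell, whereas the highest Ccl3, Ccl4 and Cxcl14 cells are Normoxia cells with 107, 144 and 74 UMIs.

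The myeloid chemokines Ccl6 and Ccl9 differed in direction. Ccl6 had 272 UMIs in Normoxia (244 CPM) and 657 in Hypoxia (413 CPM), a log2 ratio of 0.76 (0.55 to 0.96). Ccl9 had 147 (132 CPM) and 104 UMIs (65.3 CPM), a log2 ratio of -1.02 (-1.39 to -0.64). Without the 2 cells with basophil or mast cell markers these ratios were 1.02 and -0.75, so Ccl6 crossed the limit of 1 and Ccl9 no longer reached it. Macrophage or monocyte-like cells held 79.4% and 80.5% of Ccl6 and 91.2% and 98.1% of Ccl9.

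Within this class the level of Ccl6 was 2015 CPM in Hypoxia against 1843 CPM in Normoxia (log2 ratio 0.13, -0.10 to 0.36), but its 3 clusters did not move together. Cluster 14, with the alveolar macrophage markers Chil3 and Ear2 among its leading genes, held 15 Hypoxia and 0 Normoxia cells, and all 15 carried Ccl6, from 2 to 54 UMIs with a median of 29, in sum 392 of the 657 Hypoxia UMIs. In cluster 7, led by Retnla, C1qa and Pf4, 15 of 19 Normoxia cells (highest 80 UMIs) and 5 of 10 Hypoxia cells (highest 26) carried Ccl6, and its level was 1856 and 858 CPM, a log2 ratio of -1.11 (-1.59 to -0.66). Cluster 12, led by Lyz2 and Plbd1 and with Ly6c2 and Ccr2 among its markers, gave 1816 and 708 CPM, a log2 ratio of -1.36 (-1.84 to -0.88), or -1.25 without its cell with basophil or mast cell markers. Thus the summed Ccl6 level was lower in Hypoxia in both clusters present in both libraries, and 392 of the 529 Hypoxia UMIs of the class came from cluster 14. In cluster 7, however, 1 Normoxia cell held 80 of the 145 Normoxia UMIs (55.2%), and the ratio without that cell was not computed. The medians per cell there were 4 UMIs in Normoxia and 0.5 in Hypoxia. A further 288 Ccl6 UMIs lay in Hypoxia barcodes that the filters left out, against 6 in Normoxia. Neutrophil-like cells added 16 UMIs from 2 Normoxia cells and 121 UMIs from 26 of 28 Hypoxia cells.

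Ccl9 was lower in macrophage or monocyte-like cells, where 134 Normoxia UMIs gave 1143 CPM while 102 Hypoxia UMIs gave 388 CPM, a log2 ratio of -1.56 (-1.94 to -1.17). It was lower in cluster 7 (log2 ratio -1.30, -1.93 to -0.69) and in cluster 12 (-0.87, -1.44 to -0.28), where without that cell the log2 ratio was -0.44 (-1.07 to 0.23). In cluster 14 only 2 of 15 cells had a Ccl9 UMI. Cells with Ccl9 mostly carried Ccl6 too, 21 of 24 in Normoxia and 20 of 26 in Hypoxia, whereas these were 77.8% and 29.9% of the Ccl6 cells. Of the 6 members with at least 20 UMIs in macrophage or monocyte-like cells, 0 were called higher, against 13% of 2393 genes, and 3 were called lower (Ccl3, Ccl4 and Ccl9), against 6.44%. Their median log2 ratio was -1.06, beside 0.13 over all genes in these cells. Without the cell with basophil or mast cell markers 2 were lower (Ccl4 and Ccl9) and the median was -0.42.

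**Figure D4:**
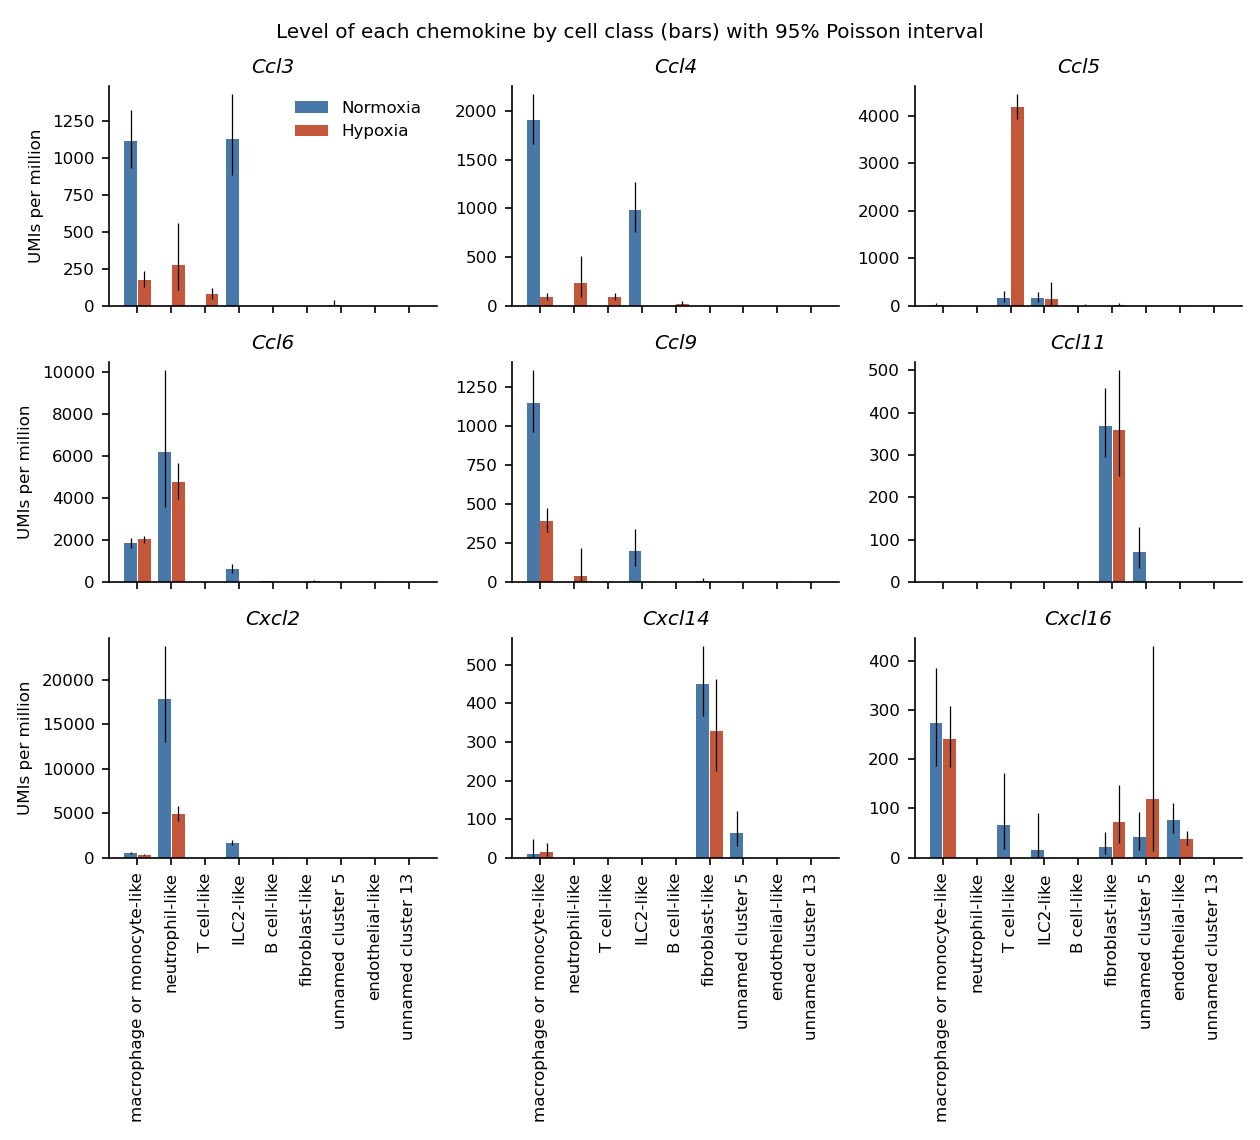
Level of each chemokine (y axis, CPM of all UMIs in the class) by cell class (x axis) in Normoxia (blue) and Hypoxia (red), with 95% Poisson intervals drawn where the gene had a UMI. In neutrophil-like cells the Normoxia bars rest on 2 cells, and in the macrophage or monocyte-like class Ccl9 stands at 1143 and 388 CPM.

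Fibroblast-like cells were the source of Ccl11 and Cxcl14, and both were lower in the Hypoxia library while their level in these cells differed by less than the counting error. Ccl11 had 92 UMIs in Normoxia (82.7 CPM) and 35 in Hypoxia (22.0 CPM), a log2 ratio of -1.91 (-2.52 to -1.34). Of these UMIs 82 and 35 lay in fibroblast-like cells, at 370 and 360 CPM, a log2 ratio of -0.04 (-0.65 to 0.55). The gene was detected in 16 of 39 and 8 of 21 of these cells, with at most 13 and 10 UMIs in a cell. Fibroblast-like cells themselves took 13.3% of Normoxia and 4.64% of Hypoxia cells. The remaining 10 Normoxia UMIs of Ccl11 lay in 1 cell of the unnamed cluster 5, which was led by the myofibroblast genes Hhip and Aspn among others.

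Cxcl14 had 110 UMIs in Normoxia (98.9 CPM) and 36 in Hypoxia (22.6 CPM), a log2 ratio of -2.13 (-2.71 to -1.57). In fibroblast-like cells it had 100 and 32 UMIs, or 451 and 329 CPM, a log2 ratio of -0.46 (-1.08 to 0.13). It was detected in 5 of 39 Normoxia and 7 of 21 Hypoxia fibroblast-like cells, and 1 Normoxia cell held 74 of the UMIs. Without the cell with the most Cxcl14 UMIs in each library, the log2 ratio in these cells was 0.94, and without the 3 such cells it was 1.91, so its direction rested on single cells. Neither Ccl11 nor Cxcl14 was called in fibroblast-like cells, where 0 of 2 members were higher, against 6.10% of 2392 genes, and 0 were lower, against 11.2%.

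In the fibroblast-like cells with Ccl11, markers of adventitial fibroblasts such as Pi16, Dpt and Col14a1 were common. At least 3 of these 6 markers were detected in 13 of 16 Normoxia and 8 of 8 Hypoxia cells with Ccl11, and in 22 of 23 and 4 of 13 cells without it. The corresponding counts for cells with Cxcl14 were 4 of 5 and 3 of 7, and for cells without it 31 of 34 and 9 of 14. At least 3 of the 6 alveolar fibroblast markers were found in 2 of 16 and 0 of 8 cells with Ccl11 and in 1 of 5 and 3 of 7 cells with Cxcl14.

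Cxcl2, a neutrophil attractant that myeloid cells induce rapidly, had nearly the same UMI sum in both libraries but came from different cells. It had 212 UMIs in 17 Normoxia cells (191 CPM) and 218 UMIs in 35 Hypoxia cells (137 CPM), a log2 ratio of -0.48 (-0.76 to -0.20). With every cell given equal weight the log2 ratio was 0.43, so the direction depended on the weighting. In Normoxia ILC2-like cells held 104 UMIs (49.1%) in 7 of the 19 cells of this mixed class, with at most 28 in a cell. None of the 6 Hypoxia ILC2-like cells had a UMI, so the level there was at least 8.01-fold lower by the floor of 3 UMIs, on few cells. In Hypoxia neutrophil-like cells held 125 UMIs (57.3%), in 20 of 28 cells with a median of 3 and at most 16. The 2 Normoxia neutrophil-like cells held 20 and 26 UMIs, more than any of the Hypoxia cells of that class. Their median depth was 1290 UMIs, against 690.5 UMIs in the Hypoxia cells.

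Cluster 12 had 0 Cxcl2 UMIs in 8 Normoxia cells and 44 UMIs in 6 of 20 Hypoxia cells, at least 5.02-fold higher by the floor. In cluster 7 the UMIs were 59 in 5 of 19 Normoxia cells, of which 48 lay in 1 cell, and 40 in 3 of 10 Hypoxia cells. The dissociation genes took 1.83% and 1.08% of UMIs in ILC2-like cells and 3.80% and 3.07% in neutrophil-like cells, and their part in the Cxcl2 level was not tested. Cxcl2 was found with Ccl6 in 7 of 17 Normoxia and 28 of 35 Hypoxia Cxcl2 cells, 25.9% and 41.8% of the Ccl6 cells.

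Cxcl16 had UMIs in macrophage or monocyte-like, endothelial-like and fibroblast-like cells of both libraries, with 74 UMIs in 44 Normoxia cells (66.5 CPM) and 100 UMIs in 46 Hypoxia cells (62.8 CPM), a log2 ratio of -0.08 (-0.53 to 0.37). Its 2 main sources, macrophage or monocyte-like cells (43.2% and 63.0% of UMIs) and endothelial-like cells (35.1% and 28.0%), were not uniform. Cells of cluster 7 were deeper in Hypoxia, with medians of 3681 UMIs in Normoxia and 5920 in Hypoxia. In that cluster Cxcl16 was found in 12 of 19 Normoxia cells (28 UMIs, highest 7) and 10 of 10 Hypoxia cells (47 UMIs, highest 10). Its level there was 358 and 720 CPM, a log2 ratio of 1.01 (0.30 to 1.74). Over the whole macrophage or monocyte-like class the log2 ratio of Cxcl16 was -0.19 (-0.82 to 0.48), and cluster 14 had 0 UMIs. In endothelial-like cells it was found in 17 of 113 (26 UMIs) and 21 of 211 (28 UMIs), at 75.6 and 37.6 CPM, a log2 ratio of -1.01 (-1.83 to -0.18). Of these, all 6 Normoxia UMIs of cluster 8 lay in cells with fewer than 3 endothelial markers. Without cluster 8 the gene was found in 14 of 92 Normoxia cells (20 UMIs) and 15 of 189 Hypoxia cells (18 UMIs), a log2 ratio of -1.45 (-2.45 to -0.45). The difference between the ratios of cluster 7 and of endothelial-like cells was not tested. Within the endothelial-like class the cluster led by Car4, a gene of alveolar capillaries, carried it in 7 of 19 and 7 of 20 cells. B cell-like cells had 0 Cxcl16 UMIs in 31 Normoxia and 55 Hypoxia cells, which by the same limit of 3 counts allows shares of cells with a UMI of up to 9.68% and 5.45%.

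The class makeup alone was set beside these ratios by giving each class its Normoxia level at the share of UMIs that the class had in Hypoxia. For Ccl11 that expected log2 ratio was -1.83, close to the measured -1.91, and for Cxcl14 it was -1.74 beside -2.13. For Ccl6 it was 0.75 beside 0.76, a match that covers unlike clusters within the macrophage or monocyte-like class. Cluster 14, with 0 Normoxia cells, held 392 of the 529 Hypoxia UMIs of that class. Clusters 7 and 12 had log2 ratios of -1.11 and -1.36. For Ccl5 the expected log2 ratio was 0.64 beside 5.09. For Ccl3, Ccl4, Ccl9 and Cxcl2 it was positive (0.10, 0.34, 0.53 and 1.03). Their measured ratios, with the 2 cells that had basophil or mast cell markers included, were negative. For Cxcl16 the expected ratio was 0.48 beside -0.08. The expected Cxcl2 ratio drew on a Normoxia level of 17829.5 CPM in neutrophil-like cells, which came from 2 cells with 46 UMIs.

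**Figure D5:**
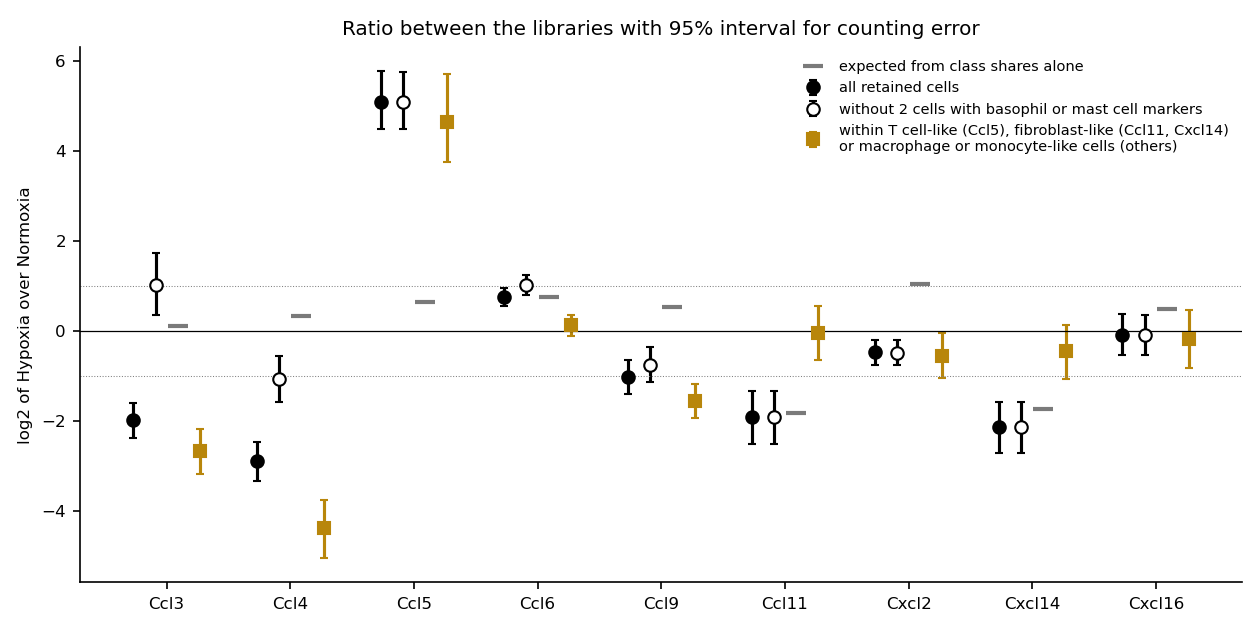
Log2 ratio of Hypoxia to Normoxia (y axis) for each gene in all retained cells (filled circles), without the 2 cells with basophil or mast cell markers (open circles) and within the class named in the key (squares), each with its 95% interval, and as class shares alone would give it (grey bars, no interval). Dotted lines mark ratios of -1 and 1. The filled and open circles of Ccl3 lie on opposite sides of 0, at -1.99 and 1.02.

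After thinning to 1000 UMIs, the share of cells with a UMI was 5.92% (3.49 to 9.31) and 2.87% (1.49 to 4.96) for Ccl9, 3.83% (1.93 to 6.75) and 0.957% (0.261 to 2.43) for Ccl11, 6.27% and 8.61% for Ccl6, 4.53% and 3.83% for Cxcl2 and 6.27% and 4.55% for Cxcl16. For Ccl3 it was 1.05% and 1.91%, against the direction of its summed level, and no order is read from it. Of the 28 Hypoxia neutrophil-like cells 21 were too shallow for the thinning, so the Cxcl2 share leaves out most of its main source, and at 500 UMIs, which left out no cell, the Cxcl2 shares were 3.41% and 5.08%, in the other order. For Ccl4 the shares at 1000 UMIs were 2.09% and 1.91%. Ccl3, Ccl4 and Ccl11 had 0 UMIs in the 113 Normoxia and 211 Hypoxia endothelial-like cells, which allows shares of cells with a UMI of up to 2.65% and 1.42%, a limit of 3 counts that says nothing of cells expressing the genes.

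The genes whose levels over the 14 clusters were most like each member are given by Pearson's r, a description in which the points share libraries and depth. Ccl3 and Ccl4 were most like each other (r = 0.99), followed by Ccr2 (0.90 for Ccl3 and 0.92 for Ccl4). Without the 2 cells with basophil or mast cell markers, which set their levels in clusters 1 and 12, r was 0.90 between Ccl3 and Ccl4 and 0.49 and 0.40 with Ccr2. Ccl5 was closest to Il2rb, Cd3e and Cd247, genes of T and NK cells (r from 0.97 to 0.99). Ccl6 followed Alox5ap, Bcl2a1d and Bcl2a1a (0.94 to 0.96), and Ccl9 followed F13a1, Pf4 and Ccl4 (0.90 to 0.95, and 0.67 with Ccl4 without those cells). Ccl11 was nearest to the fibroblast-like genes Cadm3, Cilp and Srpx (all at 1.00 when rounded), and Cxcl14 to Steap3, Sfrp1 and Mfap4 (all at 0.98). Cxcl2 followed Lcp2, Osm and Dusp1 (0.90 to 0.91), and Cxcl16 followed Dusp22, C1qc and Pepd (0.85 to 0.88).

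The receptors Ccr1, Cxcr2 and Cxcr6 were found mostly in leukocyte-like classes. Ccrl2, Ackr2, Ackr3 and Ackr4 lay mostly in endothelial-like cells (73.9%, 85.7%, 60.2% and 58.7% of UMIs over both libraries). Of 23 chemokine receptors, 13 had at least 20 UMIs. Of these 2 were called higher (Ccr7 at 1.55 and Cxcr2 at 1.80), against 6.21% of all genes with at least 20 UMIs. Only 1 was called lower (Cxcr6 at -1.23), against 8.13%. The median log2 ratio was -0.01, beside 0.04 over all genes. Cxcr2, the receptor of Cxcl1 and Cxcl2, had 20 of its 25 Hypoxia UMIs in neutrophil-like cells. Ccr1 had 13 of 19 Hypoxia UMIs in neutrophil-like cells. Cxcr6, the receptor of Cxcl16, lay in ILC2-like (8 UMIs) and T cell-like cells (9) in Normoxia and in T cell-like cells (11) in Hypoxia. Ccr3, the receptor of Ccl11, had 0 UMIs in both libraries.

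Of 25 other chemokines, 11 had at least 20 UMIs, and Cxcl11, also on that list, had no entry among the genes. Of the 11, 0 were called higher, against 6.21% of all genes with at least 20 UMIs. The number called lower was 3 (Ccl2 at -1.69, Ccl24 at -1.80 and Cx3cl1 at -1.42), against 8.13%. The median log2 ratio was -0.64, beside 0.04 over all genes. Ccl2 and Ccl7 had their largest share in fibroblast-like cells (49.2% and 62.3% of UMIs), as had Ccl11 and Cxcl14. Ccl8, Ccl24, Cxcl10, Cxcl13 and Pf4 were found mainly in macrophage or monocyte-like cells (56.0% to 100%), and Cx3cl1 in endothelial-like cells (95.3%). Several of these shares leaned on single cells. A single cell held 32 of 65 Ccl2, 16 of 53 Ccl7, 23 of 46 Ccl8, 15 of 29 Cxcl10 and 90 of 207 Cxcl13 UMIs. The highest cell held 7 of 24 Ccl24, 37 of 267 Pf4 and 3 of 43 Cx3cl1 UMIs. Ccl21a, which has 2 rows, lay in the unnamed cluster 13 with the lymphatic genes Mmrn1 and Flt4 (98.3%). Because Ccl21a was not left out of the clustering, this share may not be independent of the clusters.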

How the data were processed

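The authors deposited, per the labels and the file headers, 1 matrix of UMI counts per library, made from 10x Chromium 3' reads with Cell Ranger (the matrix header gives software version 3.1.0) and mm10, not normalized. Barcodes had to hold 200 to 6000 genes and no more than 5% mitochondrial UMIs (80 Normoxia and 160 Hypoxia barcodes were left out), as in the study's methods. Counts were scaled to 10000 UMIs per cell for clustering only, with scanpy 1.11.5, scipy 1.17.1 and python 3.11.15. Settings were 2000 variable genes, 15 principal components, 15 neighbours and Leiden resolution 1. The members and the listed chemokines and receptors were left out of the variable genes, except Ccl19 and Ccl21a, which have 2 rows each. Clusters were named from at least 3 markers detected in at least 25% of cells and at least 2-fold enriched. Levels are CPM (UMIs per 1000000) of the library's or class's retained UMIs, without pseudocount. Intervals are exact (Poisson for levels, Clopper-Pearson for shares, conditional binomial for ratios) at 95%, and a library at 0 entered at a floor of 3 UMIs. Genes with at least 20 UMIs were compared, and most similar genes (3 per member) needed at least 50 UMIs. Doublets, of which Scrublet marked 1 and 2, were kept. Depth gives a floor of 2.70 CPM in Normoxia and 1.88 in Hypoxia. The study's methods describe whole lung depleted of leukocytes and epithelium, the labels sorted reporter cells. Named genes were the members and the fixed lists, and the members and lists were chosen with earlier results of these data known. The code was tested on simulated data.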

Additional observations from a re-analysis of the deposited data

Results flagged for a closer look

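Barcodes left out by the filters held chemokine UMIs above the level in the Normoxia barcodes left out in the same way. Ccl6 had 288 UMIs in 27 of the 160 Hypoxia barcodes left out and 6 UMIs in 3 of the 80 Normoxia ones, that is 725 and 28.4 CPM, and 261 of the 288 lay in 13 Hypoxia barcodes with at least 5 alveolar macrophage markers. No Normoxia barcode left out had as many of these markers. Ccl9 had 32 UMIs in the Hypoxia barcodes left out and 6 in the Normoxia ones, Cxcl2 had 26 and 2, and Cxcl14 had 10 and 0.

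Some chemokines had ratios of opposite direction in different clusters, and these differences between clusters were not tested. Values given as at least or at most put a library at 0 at the floor of 3 UMIs, without the counting error of the other library. For Ccl3 the log2 ratio of Hypoxia to Normoxia was at least 0.65 in the T cell-like cluster 3, at most -2.43 in the ILC2-like cluster 1 and -3.65 in cluster 12, and in clusters 1 and 12 all Normoxia UMIs lay in the 2 cells with basophil or mast cell markers. For Ccl4 it was at least 0.85 in cluster 3, at most -2.23 in cluster 1, -1.72 in cluster 7 and -6.72 in cluster 12. All 144 Normoxia Ccl4 UMIs of cluster 12 and 60 of the 61 of cluster 1 lay in those 2 cells, and 56 of the 79 of cluster 7 lay in 1 other cell, so without the 2 cells Ccl4 had 0 Normoxia and 4 Hypoxia UMIs in cluster 12. For Cxcl2 it was at least 2.33 in cluster 12 and at most -3.0 in cluster 1, which held 6 Hypoxia cells.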

How the results depend on the processing

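Under 24 alternatives 694 values of single members stayed within counting error, 144 moved and 5 called values changed direction. Counting uncalled values too, 34 of 487 log2 ratios had the other sign, 9 of Ccl11, 8 of Cxcl14, 6 of Ccl6, 5 of Ccl3, 4 of Cxcl2 and 2 of Cxcl16. The 5 called values were of Ccl3, under 2 alternatives chosen after seeing the data, as was leaving out cluster 8. Without its 3 highest cells in each library Ccl3 stood at 1.99 in all cells, 1.02 in macrophage or monocyte-like cells and 1.51 against the level expected from class shares, and without the 2 cells with basophil or mast cell markers at 1.02 in all cells and 0.41 against that level. Under each of these 2 alternatives 3 members were higher in all cells (1 as reported) and 3 lower (5 as reported). The number higher was 2 with a mitochondrial maximum of 10%, with none, with equal weight per cell, without the highest cell and at a log2 limit of 0.58. In macrophage or monocyte-like cells the number higher was 1 without the highest cell and 2 without the 3 highest, where 1 was lower. In T cell-like cells 3 were higher without a mitochondrial maximum and with equal weight, and 2 with 30 principal components and with haemoglobin, mitochondrial, ribosomal protein and immunoglobulin genes left out of the total. There, 5 were lower with a mitochondrial maximum of 10%, 1 with none, and 4 at Leiden resolution 0.5 and with 1000 variable genes. In fibroblast-like cells 1 was higher without a mitochondrial maximum and 1 lower with 10 principal components. Ccl5 was detected in 3.60% of Normoxia and 8.46% of Hypoxia cells when thinned to 2000 UMIs. The cause was not tested for these changes. Over 18 alternatives the log2 ratio in all cells ranged from 4.94 to 5.93 for Ccl5, -2.96 to -0.20 for Ccl4, -2.66 to -1.82 for Ccl11, -2.17 to -1.02 for Cxcl14 and -0.52 to 0.43 for Cxcl2, and within the fibroblast-like class from -1.98 to 1.91 for Cxcl14 and -0.52 to 0.50 for Ccl11. With 1 library per group no replicate could be left out and depth limits only counting error. No paired analysis was possible because each group holds 1 library.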

Other observations

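In Hypoxia 12 cells and in Normoxia 8 cells had UMIs of at least 4 of the chemokines, and no cell had more than 6. Ackr1, the atypical receptor that binds many CC and CXC chemokines without signalling, had 19 UMIs in Normoxia and 0 in Hypoxia. Cxcl15, a chemokine of lung epithelium, had 19 and 41 UMIs, of which 96.7% lay in cluster 8, an endothelial-like cluster whose leading gene was the club cell gene Scgb1a1. These UMIs lay in 7 cells, and 1 cell held 32 of the 60. Chemokines with too few UMIs for a ratio were Ccl17 (2 and 16 UMIs), Ppbp (0 and 15), Ccl12 (9 and 7) and Xcl1 (0 and 4).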
